A study of Mus musculus with 6 samples.

Results

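The multiciliated cell programme headed by Gmnc was read in cultured neural stem cells and progenitors of adult mice with and without active SIRT1. It was taken as 10 genes: the regulators Gmnc, Mcidas, Foxj1, Ccno, Rfx2 and Rfx3, and the cilium genes Tekt1, Dynlrb2, Hydin and Ak7. All 10 of 10 genes had a probe set paired with exactly 1 gene, and none had more than 1, out of 19937 genes measured in this way. The set was chosen by the Gmnc values of these same arrays, which were higher without active SIRT1, and the other 9 genes were added for their roles. The genotype differences of all 10 are therefore descriptions, and no test of them is given.

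The control cultures came from mice carrying floxed Sirt1 alleles (Sirt1lox/lox), and the Sirt1 inactive cultures from mice that carry the same floxed alleles with a Cre transgene (NestinCre;Sirt1lox/lox). All mice were of the 129SV strain and 8 weeks old, and each genotype has 3 arrays, called biological replicates in the sample titles. Nestin-driven Cre acts in neural stem and progenitor cells and in what descends from them, which includes ependymal cells. Because Cre is present in 1 genotype alone, what Cre itself does cannot be told apart from the loss of active SIRT1. Cells were grown as neurospheres with EGF and bFGF, replated on poly-D-lysine and collected while proliferating, at passage 2. The number of mice behind a sample is not stated in the labels, and p-values measure the spread between these samples.

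Multiciliated cells carry many motile cilia, and in the brain they are the ependymal cells that line the ventricles and move cerebrospinal fluid. Ependymal cells and adult neural stem cells of the ventricular wall both descend from radial glia. GEMC1, the product of Gmnc, and multicilin, the product of Mcidas, belong to the geminin family; they act with E2F4 or E2F5 to start the multiciliated fate. They switch on Foxj1, the forkhead regulator of motile cilia, and genes for centriole production such as Ccno. RFX factors bind X-box motifs in the promoters of cilium genes and work with FOXJ1.

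Promoter sequences are shown for Gmnc, the gene that led to the choice, and for the cilium genes Tekt1, Dynlrb2 and Hydin, which hold matches to the RFX motif close to a start. The table lists another start for Gmnc and for Tekt1, and neither of those windows held a match. Each is the last 120 bases before an annotated start in RefSeq's GRCm38.p6 table, read 5′ to 3′ on the gene's strand; capitals mark an RFX half-site (GTTGCC, either strand) or an X-box match. The X-box was searched on both strands as GTNNCC followed, after 2 or 3 free bases, by GNAAC, so a half-site can lie inside an X-box.
Gmnc, chr16:26991653-26991772, minus strand: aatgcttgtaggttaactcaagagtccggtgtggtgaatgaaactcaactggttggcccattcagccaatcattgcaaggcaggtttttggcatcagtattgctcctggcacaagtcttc
Tekt1, chr11:72361883-72362002, minus strand: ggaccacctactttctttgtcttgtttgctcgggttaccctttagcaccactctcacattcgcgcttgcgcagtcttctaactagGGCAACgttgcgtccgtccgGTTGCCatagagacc
Dynlrb2, chr8:116504895-116505014, plus strand: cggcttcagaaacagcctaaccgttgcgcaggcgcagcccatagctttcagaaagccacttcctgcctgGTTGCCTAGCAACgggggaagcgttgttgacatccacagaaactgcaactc
Hydin, chr8:110266857-110266976, plus strand: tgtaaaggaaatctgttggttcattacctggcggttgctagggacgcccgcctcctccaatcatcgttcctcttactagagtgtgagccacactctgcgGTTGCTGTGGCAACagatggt

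The table held a promoter for 9 of the 10 genes, and 250 bases before each start were searched. The half-site was found in 6 of these 9 genes, Tekt1, Dynlrb2, Hydin, Ccno, Mcidas and Rfx2, and in 10.4% of all 32817 promoter windows. A gene counted if any of its listed starts held a match, whereas the shares of all windows count each start singly. The X-box with 3 free bases matched in Hydin and Ccno (1.79% of all windows) and the one with 2 in Dynlrb2 (1.32%). Neither listed start of Gmnc held a half-site. A forkhead site spelled TGTTTAC was found in Ak7 and no other gene of the set (3.16% of windows), and an E2F site spelled TTCCCGC in none of the 9 (3.82% of windows). A match is a description of letters and not of binding. The genes were chosen partly as cilium genes, so these shares are not a test.

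The values are log2 expression made by the authors with RMA, with array medians of 7.36 to 7.39 and lower quartiles of 5.78 to 5.83. Sirt1 itself read 8.73, 8.78 and 8.55 in control and 8.26, 8.33 and 8.25 in the Sirt1 inactive arrays, and the labels do not say which exons are floxed. Control replicate 3 lay farthest from the other arrays, at a median distance of 0.117 per probe set, against 0.089 for Sirt1 inactive replicate 2. Over all 22961 tested probe sets, 0 passed (limma, smallest adjusted p = 0.959), and 830, or 3.61%, had an unadjusted p under 0.05. The median difference over all of them was -0.02, and 39.9% lay above 0, or 51.1% with array medians subtracted. The 11 measured stem cell markers averaged 10.4 to 10.6 per array: Nes, Sox2, Slc1a3 and Fabp7 read between 11.5 and 13.5 on every array, Prom1 between 7.08 and 7.64, and the other 6 between 8.33 and 11.7.

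Gmnc (probe set 10438784) read 5.91, 5.89 and 5.72 in control replicates 1 to 3 and 6.13, 6.18 and 6.43 in the Sirt1 inactive replicates. Every Sirt1 inactive array was above every control array, and Sirt1 inactive replicate 3 was the highest and control replicate 3 the lowest. The means were 6.24 ± 0.16 against 5.84 ± 0.11 (SD, n = 3), a difference of 0.40 (SE 0.10) on the log2 scale, or 1.32-fold. The same-numbered pairs differed by 0.21, 0.29 and 0.71, so the pair numbered 3 gave the most. Without the pair numbered 3, and with the number kept as a block, a fit in which 0.0827% of all probe sets passed and none of the 10 genes did, the difference was 0.25, and with any 1 array left out it lay between 0.31 and 0.46.

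Gmnc was dim. Between 23.4% and 34.4% of all probe sets were dimmer on each array. As a description of unexpressed genes, the 1027 measured olfactory receptor genes had a 5th to 95th percentile range of 3.88 to 6.84, and 82.4% of them were dimmer than the mean of Gmnc. Probes differ in brightness for the same amount of RNA, so this range is no detection limit, and the values do not tell whether Gmnc was detected.

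Mcidas, whose product multicilin acts with E2F4 or E2F5 as GEMC1 does, read 7.71, 7.83 and 7.87 in control and 7.78, 7.84 and 7.73 in the Sirt1 inactive arrays. The groups overlapped, and the means were 7.80 ± 0.08 and 7.78 ± 0.05 (SD, n = 3), a difference of -0.02 (SE 0.07, 95% interval -0.18 to 0.14). All 6 arrays fell within 0.16 of each other.

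Foxj1, the forkhead regulator of motile cilia, read 9.25, 8.88 and 8.64 in control and 9.19, 8.94 and 8.85 in the Sirt1 inactive arrays. The arrays numbered 1 were the highest in both genotypes and the groups overlapped throughout. The difference was 0.07 (SE 0.16, 95% interval -0.31 to 0.45), and it was -0.07 without control replicate 3 and 0.23 without control replicate 1. Such fits keep the same-numbered array of the other genotype and have no block, so replicate number and genotype are not balanced in them.

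Ccno, a cyclin-like protein needed for the production of many centrioles, read 7.59, 7.33 and 7.60 in control and 7.44, 7.35 and 7.46 in the Sirt1 inactive arrays. The difference was -0.09 (SE 0.09), with overlapping groups. In RefSeq's gene order for assembly GRCm38.p6, Ccno, Mcidas and Cdc20b follow each other on chromosome 13, and the next entries are Mir449c, Mir449b and Mir449a. Cdc20b, which hosts these microRNA genes, differed by -0.01 (SE 0.07).

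Rfx3, an RFX factor needed for cilium genes in ependymal cells, read 9.16, 9.10 and 9.001 in control and 8.85, 8.99 and 8.90 in the Sirt1 inactive arrays. The lowest control array lay just above the highest Sirt1 inactive array. The means were 8.91 ± 0.07 against 9.09 ± 0.08 (SD, n = 3), a difference of -0.18 (SE 0.07), lower in 3 of 3 pairs, and between -0.22 and -0.14 with any 1 array left out. Rfx2, its close relative, read 8.74, 8.55 and 8.35 in control and 8.56, 8.47 and 8.41 in the Sirt1 inactive arrays. Its groups overlapped, with a difference of -0.06 (SE 0.10). Leaving out control replicate 1 gave 0.03, and leaving out control replicate 3 gave -0.16, again without a block.

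**Figure D1:**
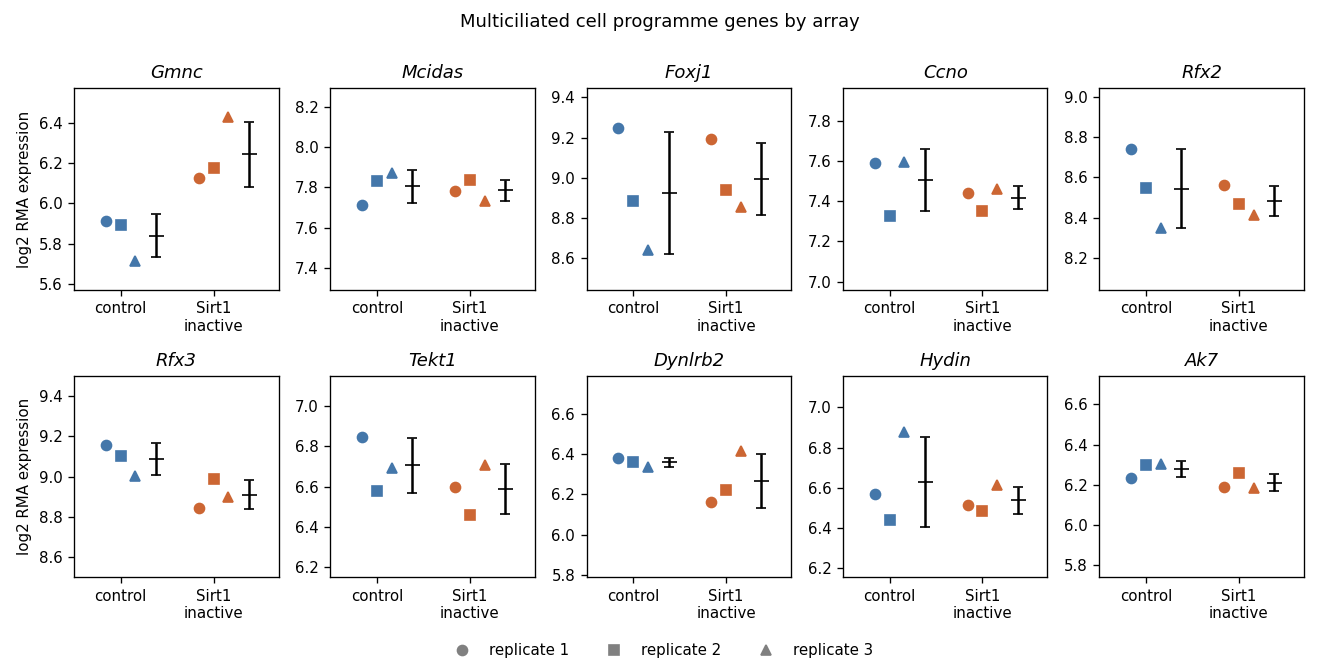
Log2 RMA expression of the 10 programme genes on each of the 6 arrays (vertical axis, 1 log2 unit high in every panel), by genotype; point shapes give the replicate number, and the black bar gives the mean ± SD of 3 arrays. Gmnc and Rfx3 are the genes whose groups do not overlap, Gmnc with higher and Rfx3 with lower values in the Sirt1 inactive arrays.

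The cilium genes read as follows. Tekt1 encodes a tektin, a filament protein inside the outer microtubule doublets. It read 6.85, 6.58 and 6.69 in control and 6.60, 6.46 and 6.71 in the Sirt1 inactive arrays, a difference of -0.12 (SE 0.10). Dynlrb2, a light chain of the dynein motor complexes, read 6.38, 6.36 and 6.34 in control and 6.16, 6.22 and 6.42 in the Sirt1 inactive arrays, a difference of -0.09 (SE 0.08). In both genes Sirt1 inactive replicates 1 and 2 were lower than their same-numbered control and Sirt1 inactive replicate 3 was higher, by 0.01 for Tekt1 and 0.08 for Dynlrb2.

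Hydin, a large protein of the central pair apparatus that ciliary beating needs, read 6.57, 6.44 and 6.88 in control and 6.51, 6.49 and 6.61 in the Sirt1 inactive arrays. Control replicate 3 was the highest, and without it the difference of -0.09 (SE 0.11) became 0.03. Ak7, an adenylate kinase of motile cilia, read 6.23, 6.30 and 6.30 in control and 6.19, 6.26 and 6.18 in the Sirt1 inactive arrays. It was lower in 3 of 3 pairs, by 0.04 to 0.12, but the groups overlapped, and the difference was -0.07 (SE 0.06). The means of these 4 cilium genes over the 6 arrays lay between 6.24 and 6.65, inside the range of the olfactory receptor genes given above, whereas Foxj1, Rfx2, Rfx3, Mcidas and Ccno lay above it.

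Of the 10 genes, 2 had a difference above 0, Gmnc and Foxj1, and 8 below 0; with array medians subtracted 3 were above 0, and with array weights 4. The median over the 10 was -0.08, and -0.09 over the 9 without Gmnc, against -0.02 over all probe sets. The groups did not overlap for 2 genes, 1 higher and 1 lower, where 2.62% of all probe sets were higher without overlap and 6.71% lower. Passing the threshold were 0 of the 10, as for 0% of all probe sets. Since Gmnc was picked for its difference, nothing is read from these counts.

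**Figure D2:**
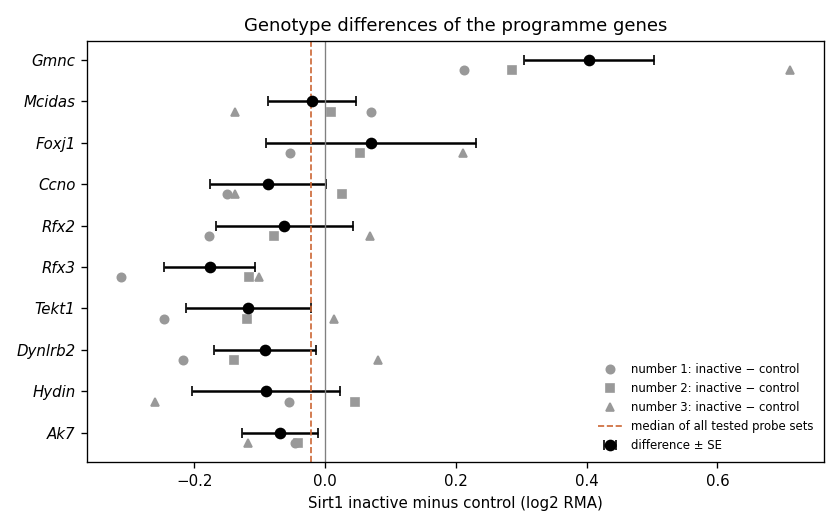
Sirt1 inactive minus control in log2 RMA units (horizontal axis) for each programme gene. Black points are the limma differences ± SE over 6 arrays, grey symbols the differences of same-numbered arrays, and the dashed line the median of all tested probe sets, -0.02; Gmnc is at 0.40 and the other 9 genes lie between -0.18 and 0.07.

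The profile of Gmnc over the 6 arrays was set against that of 18666 named genes, by the root mean square difference between values centred on each gene's mean. The nearest genes were Mrps10, a mitochondrial ribosomal protein (0.10), Tuba4a, an alpha-tubulin (0.10), Chordc1, a partner of the chaperone HSP90 (0.10), Myo6, an unconventional myosin (0.11), and Tlr4, a receptor for bacterial lipopolysaccharide (0.11). All 5 had a positive genotype difference, from 0.20 for Myo6 to 0.28 for Chordc1, and the match to Gmnc selects for that. None belongs to the lists of cilium genes used here. The other 9 programme genes lay at 0.25 (Dynlrb2) to 0.32 (Hydin) from Gmnc, and the median over the genes compared was 0.26. Dynlrb2, the nearest of them, ranked 8066th. The measure is not scaled by a gene's own spread, so genes that vary little lie at similar distances whatever their pattern. These distances therefore do not tell whether a programme gene follows Gmnc.

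Other regulators of the programme did not pass the test. Of 15 measured, 0 passed in either direction (limma, smallest adjusted p = 0.959), 3 were above 0 and 12 below, with a median of -0.05. Noto, a homeobox gene known from the cilia of the node, read 6.88, 6.82 and 6.85 in control against 6.63, 6.56 and 6.71, a difference of -0.22 (SE 0.06). Its means of 6.85 in control and 6.63 in Sirt1 inactive lay on either side of 6.84, the upper end of the olfactory receptor range. Trp73, the p53 relative that acts upstream of Foxj1, read 7.31, 7.28 and 7.35 in control against 7.26, 7.21 and 7.17, a difference of -0.10 (SE 0.06). The groups of both genes did not overlap, the only 2 such genes of the 15, where 6.71% of all probe sets were lower without overlap. The partners of GEMC1 and multicilin, named outside the rule after their values were seen, read between 9.88 and 10.57 on every array: E2f4 differed by -0.01 (SE 0.06) and E2f5 by 0.17 (SE 0.11). Gmnn, which encodes geminin, differed by 0.01 (SE 0.13).

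MicroRNAs of the family of miR-34 and miR-449 promote multiciliated cell formation, and their shared seed is the reason to show them. Capitals mark bases 2 to 8 of the mature strand in RefSeq's table.
miR-449a-5p: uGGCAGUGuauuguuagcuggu
miR-449c-5p: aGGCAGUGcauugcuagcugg
miR-34b-5p: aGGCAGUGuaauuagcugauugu
These arrays read the gene and not the mature strand. Mir449a, which lies near Mcidas as described, had values of 7.01, 6.88 and 7.21 in control and 6.92, 6.94 and 6.77 in the Sirt1 inactive arrays, a difference of -0.16 (SE 0.10). Mir449c differed by 0.03 (SE 0.06), Mir34b by -0.15 (SE 0.11) and Mir34c by -0.03 (SE 0.07). None of these 4 genes passed.

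Centriole amplification genes were divided. Of 18 measured, 0 passed, 9 were above 0 and 9 below, with a median of 0.01. Deup1, a scaffold of the deuterosomes on which multiciliated cells build centrioles, read 6.46, 6.33 and 6.54 in control against 6.22, 6.19 and 6.30, a difference of -0.20 (SE 0.07). Cep63, its paralogue at mother centrioles of dividing cells, read 8.19, 8.20 and 8.21 in control against 8.28, 8.38 and 8.44, a difference of 0.17 (SE 0.06). The groups of both genes did not overlap, and neither passed (limma, adjusted p = 0.959). They were the only 2 such genes of the 18, where 2.62% of all probe sets were higher without overlap and 6.71% lower. Cep152, which works with both, differed by -0.10 (SE 0.09) with overlapping groups.

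Of the genes of the beating axoneme 0 passed. Of 26 measured genes for dynein arms and their assembly 10 were above 0, or 38.5%, near the 39.9% of all probe sets, with a median of -0.04 that was 0.008 without control replicate 1. Their groups did not overlap for 2, both lower, again near the share of all probe sets that were lower without overlap, 6.71%. Among them, the dynein heavy chain gene Dnah6 differed by -0.11 (SE 0.06) and Dnah10 by -0.12 (SE 0.07), and Wdr63, of the inner arms, by -0.10 (SE 0.06). Of 19 genes for the central pair, radial spokes and nexin links 3 were above 0, with a median of -0.09 that was 0.005 without control replicate 1. Fits without control replicate 1 kept Sirt1 inactive replicate 1 and had no replicate block, so replicate number and genotype are not balanced in them. Rsph4a, of the radial spoke head, read 5.93, 5.56 and 5.58 in control against 5.56, 5.35 and 5.27, a difference of -0.30 (SE 0.12), or -0.18 when control replicate 1 was left out. Spag16, of the central pair, differed by -0.18 (SE 0.06) and Cfap221 by -0.13 (SE 0.07). The groups of all 3 genes did not overlap, the only such genes among the 19. All 3 were dim, with means in control and Sirt1 inactive of 5.69 and 5.39 for Rsph4a, 5.08 and 4.90 for Spag16, and 6.09 and 5.96 for Cfap221. These means, like those of Dnah6 and Wdr63, lay inside the range of the olfactory receptor genes, 3.88 to 6.84.

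Other motile cilium genes were above 0 for 7 of 27, with a median of -0.06 that was -0.01 without control replicate 1, and 0 passed. Tekt4, a tektin like Tekt1, differed by -0.26 (SE 0.12), or -0.14 without control replicate 1, Dydc2 by -0.15 (SE 0.07) and Ak8, an adenylate kinase like Ak7, by -0.15 (SE 0.08). Genes of intraflagellar transport and the primary cilium, which dividing progenitors also carry, were above 0 for 17 of 35, with a median of -0.01. Bbs1, of the BBSome that moves proteins through cilia, read 9.26, 9.14 and 9.16 in control against 9.002, 8.94 and 8.90, a difference of -0.24 (SE 0.06), and Bbs4, of the same complex, differed by -0.13 (SE 0.06). The groups of both did not overlap. They were among 4 of the 35 genes without overlap, all lower, where 6.71% of all probe sets were lower without overlap. Cep290, of the transition zone at the base of the cilium, differed by 0.26 (SE 0.11), or 0.14 without control replicate 3, with overlapping groups. None passed (limma, adjusted p = 0.959).

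**Figure D3:**
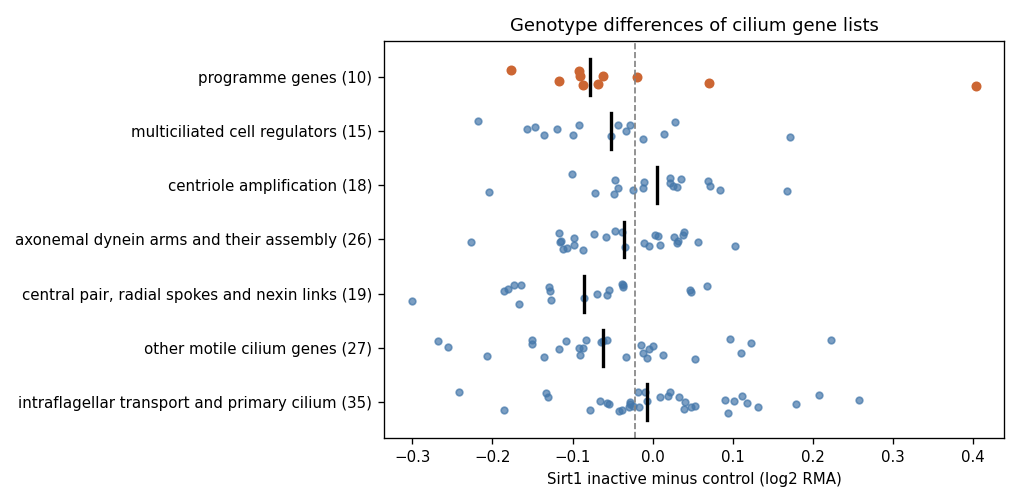
Sirt1 inactive minus control in log2 RMA units (horizontal axis) for each measured gene of the cilium lists, with the number of genes in brackets; black bars are list medians and the dashed line the median of all tested probe sets, -0.02. Gmnc, the rightmost point at 0.40, stands beyond every gene of the other cilium lists, whose highest is Cep290 at 0.26. Since Gmnc was chosen by this difference, nothing is read from its place. Markers of other cell types are not drawn.

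Ependymal markers outside the set, 12 of 12 measured, gave a mean level of 6.93 to 7.26 in control arrays and 7.02 to 7.10 in Sirt1 inactive arrays, with 4 above 0, 0 passing and a median difference of -0.03. Cfap126 and Meig1 of this list also stand among the other motile cilium genes. Choroid plexus markers, 8 of 9 measured, gave a mean of 7.30 to 8.12 in control and 7.94 to 8.03 in the Sirt1 inactive arrays, lowest in control replicate 3. Astrocyte markers, 8 of 8 measured, gave a mean of 9.15 to 9.98 in control and 9.90 to 10.07 in the Sirt1 inactive arrays. That mean was also lowest in control replicate 3, the array with the lowest Gmnc. Not every marker followed these means. Between the arrays numbered 3, Sirt1 inactive minus control was 2.24 for Gfap and 1.63 for Aqp4 but -0.13 for Gjb6. Of the choroid plexus markers it was 2.38 for Ttr and 1.45 for Otx2 but -0.16 for Kl. Oligodendrocyte progenitor markers, 8 of 8 measured, gave 9.54 to 9.63 in control and 9.70 to 9.91 in the Sirt1 inactive arrays. Of these, 4, Pdgfra, Sox10, Gpr17 and C1ql1, were higher without overlap, as were 2.62% of all probe sets. The other 4, Cspg4, Olig1, Olig2 and Lhfpl3, lay below 0, and 0 of the 8 passed. Microglia markers, 8 of 8 measured, gave 6.69 to 6.79 in control and 6.62 to 6.67 in the Sirt1 inactive arrays. These list means lay inside the range of the olfactory receptor genes, 3.88 to 6.84. All 8 of 8 were below 0, where 39.9% of all probe sets were above 0. The groups did not overlap for 4, all lower, where 6.71% of all probe sets were lower without overlap, and 0 passed. Neuroblast and neuron markers, 8 of 8 measured, gave 7.70 to 7.91 in control and 7.50 to 7.70 in the Sirt1 inactive arrays, and endothelial markers, 6 of 6 measured, 7.02 to 7.12 and 6.98 to 7.07. The part of these cell types in the difference of Gmnc was not tested. In bulk RNA, fewer cells of a type and less RNA per cell cannot be told apart.

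The values of the cilium genes were also read by the replicate number of the arrays. The number took up a larger share of the sum of squares than genotype for 16 of 19 central pair, spoke and nexin genes, 23 of 26 dynein arm genes and 24 of 27 other motile cilium genes, and for 17824 of all 22961 probe sets; the number has 2 degrees of freedom and genotype 1. The number is independent of the contrast that chose Gmnc, since each number holds 1 array of each genotype. In a fit with genotype and number, a test added after the values were seen, 0 of 22961 probe sets passed for the number (limma F test, smallest adjusted p = 0.102), 0% of all, and 3173 had an unadjusted p under 0.05. Foxj1 averaged 9.22, 8.91 and 8.75 over both arrays of numbers 1, 2 and 3, a spread of 0.47, and the number took up 90.1% of its sum of squares against 2.89% for genotype (limma F test, adjusted p = 0.31). Rfx2 averaged 8.65, 8.51 and 8.38, with 77.2% for the number, and likewise did not pass (limma F test, adjusted p = 0.37). The median shares over all probe sets were 51.2% for the number and 12.8% for genotype, so a large share for the number was usual in these arrays.

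The arrays numbered 1 had the highest mean for 17 of 19 central pair, spoke and nexin genes, where 32.1% of all probe sets did. Within the controls replicate 1 was the highest array for 15 of the 19 (28.6% of all probe sets), and within the Sirt1 inactive arrays for 14 (33.8%). The counts were alike but the sizes were not. The list mean was 7.09, 6.86 and 6.80 in control replicates 1 to 3, and 6.88, 6.82 and 6.78 in the Sirt1 inactive replicates. Most of the excess of number 1 thus came from control replicate 1, a single array. The median gene of that list spread over 0.23 between numbers, against 0.14 for all probe sets. Iqcg, of the nexin links, averaged 7.08, 6.65 and 6.48 over numbers 1, 2 and 3, and Cfap54, of the central pair, 7.79, 7.42 and 7.31; both were named after their values were seen, and control replicate 1 was the highest array for each. Drc1 and Gas8 were the exceptions, with number 3 and number 2 highest. Number 1 was also highest for 15 of 26 dynein arm genes, 17 of 27 other motile cilium genes and 15 of 35 genes of transport and the primary cilium. It was highest for 0 of 18 centriole amplification genes. Replicate 1 was highest within control and within Sirt1 inactive for 12 and 13 dynein arm genes and for 16 and 15 other motile cilium genes. For transport and the primary cilium the genotypes differed, with 22 of 35 in control and 9 of 35 in Sirt1 inactive. Of the programme genes number 1 was highest for 3 of 10, Foxj1, Rfx2 and Tekt1. Replicate 1 was the highest of the controls for 6 of the 10 and of the Sirt1 inactive arrays for 2. No gene of these lists passed the test for the number (limma F test). The labels do not say what the numbers stand for.

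**Figure D4:**
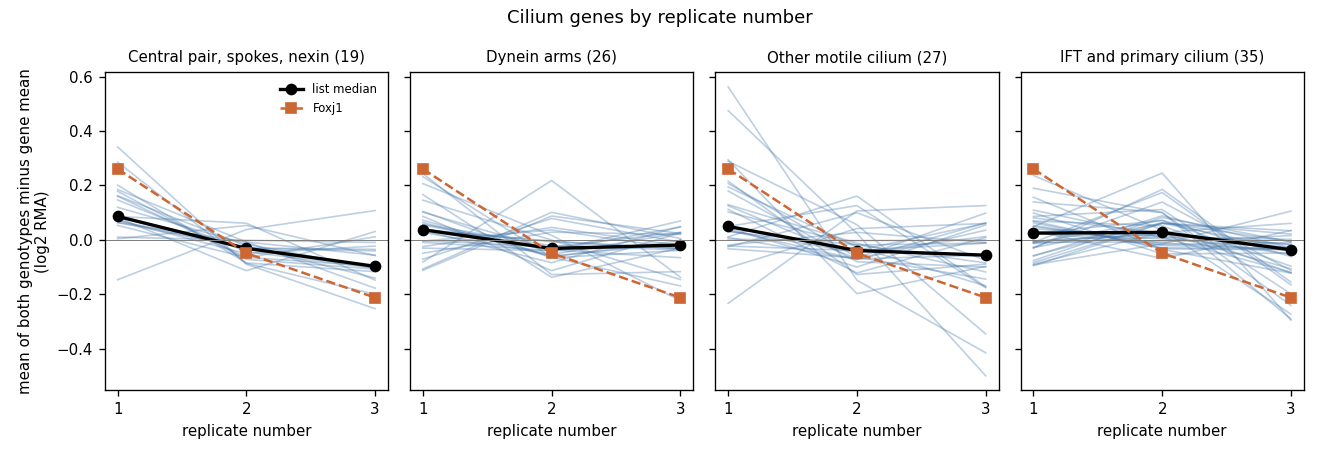
Mean of the 2 arrays of each replicate number minus the gene's mean over all arrays, in log2 RMA units, for 4 cilium gene lists (thin lines, 1 per gene; black, list median) with Foxj1 (dashed) repeated in every panel; lines join values of a gene and imply no order of the numbers. The median of the central pair, spoke and nexin list is 0.09 for number 1 and -0.10 for number 3. Number 1 joins control replicate 1, with a list mean of 7.09, and Sirt1 inactive replicate 1, with 6.88.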

How the data were processed

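Expression was measured on 1-colour Affymetrix whole-transcript arrays, 1 per sample. The deposited values are log2 expression values made by the authors with RMA, per the series' design text and the submitters' processing notes; the scale was read from the values. RMA gives arrays nearly one distribution and compresses differences of dim probe sets. The sources used here name neither its version nor a genome build. Of 34760 probe sets, GEO's platform annotation pairs 21640 with 1 gene and 1321 with several, and these 22961 were tested; genes are named from single-gene probe sets (the brightest where several).

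Differences are Sirt1 inactive minus control, fitted over 6 arrays with limma 3.58.1 in R 4.3.3 (lmFit, eBayes, two-sided, Benjamini-Hochberg over all tested probe sets, threshold 0.05); SEs are limma's. The median SE was 0.080; precision is limited by the number of arrays. On simulated data for this comparison with 22961 probe sets, log2 changes of 0.5 were called in 52.6% and of 1 in 86.8% of cases, beside 7.2 false calls on average. The simulated noise was independent between arrays, whereas same-numbered arrays deviated together in the data. It also took each probe set's observed SD as the true one. These shares therefore do not give what the real arrays could detect.

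The genes, lists and alternatives were chosen with earlier results of these data known. Named are the programme genes, up to 3 genes per list with the smallest unadjusted p, and the 5 genes most like Gmnc; others are said to be named after their values were seen, and markers of other cell types stand where their values bear on a result. Same-numbered arrays deviated together (correlations over probe sets of 0.47, 0.36 and 0.27). The numbers may therefore pair the samples, which the labels do not state. The SEs and p-values of the main fit take no account of such pairing. A limma fit with this replicate block had 1741 probe sets at an unadjusted p under 0.05, against 830, and 0 passing (smallest adjusted p = 0.51).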

Additional observations from a re-analysis of the deposited data

How the results depend on the processing

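The alternatives tried were scaling, weights, prior, probe sets tested, replicate block and arrays left out. Under them the difference of Gmnc stayed above 0 in 13 of 13 fits (0.25 to 0.46) and that of Rfx3 below 0 in 14 of 14 (-0.22 to -0.14). Gmnc was chosen by this difference. The groups of both genes did not overlap, so leaving out arrays could not turn either sign. These counts are therefore no support for either difference. The replicate block changed no call. The fits with 1 array left out had no such block, so replicate number and genotype are not balanced in them. With 1 array left out, 0 probe sets passed, the number at an unadjusted p under 0.05 was 456 (without Sirt1 inactive replicate 2) to 1453 (without control replicate 1), and 1 to 3 programme genes were above 0. List medians then ranged from -0.0954 to -0.0286 for the regulators, from -0.0716 (without control replicate 2) to 0.0078 (without control replicate 1) for dynein arms, and from -0.0444 to 0.0594 (without control replicate 1) for transport and the primary cilium. The median of the other motile cilium genes lay between -0.0963 and -0.0122 there and was -0.00416 without dim probe sets. With array weights 4 programme genes were above 0, with a median of -0.0312. When all 34760 probe sets were tested, 1376 had an unadjusted p under 0.05, and with the replicate block 1741. Without probe sets below the median brightness 387 did, 5 programme genes were left, Gmnc not among them, 1 of these was above 0, and the dynein arm median was 0.00876. In a fit chosen after seeing the data, which leaves out control and Sirt1 inactive replicate 3 and keeps the replicate block, 19 probe sets passed (0.0827% of those tested), 0 of them programme or listed cilium genes, 1972 had an unadjusted p under 0.05, Gmnc was at 0.25 and the regulator median at -0.00844. Averaging several probe sets of a gene was not run, since each programme gene has 1. Brightness limits Gmnc and the 4 cilium genes. It also limits named list genes with both group means inside the olfactory receptor range of 3.88 to 6.84. Among these were Rsph4a, Spag16, Cfap221, Dnah6, Wdr63, Deup1, Dydc2, Tekt4, Ak8 and Cep290. For Noto the Sirt1 inactive mean lay inside this range and the control mean just above it.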
